A study of Homo sapiens with 6 samples.

Results

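Integrins are cell surface receptors made of an alpha and a beta chain that hold cells to other cells and to the extracellular matrix. The genes described here encode 10 integrin chains found on T cells, 7 alpha chains (ITGAE, ITGA4, ITGAL, ITGA1, ITGA5, ITGA6 and ITGAV) and 3 beta chains (ITGB7, ITGB1 and ITGB2). They were taken by gene name, with no threshold on their values, and each was found on a single row of a table of 39012 genes. Transcripts were measured by RNA-seq in 6 libraries of Jurkat cells, an established human line from a T cell leukaemia. The libraries labelled EV, 3 in number, came from control cells, and the 3 labelled SCML4 from cells with stable overexpression of SCML4, a Scm-like Polycomb family protein. All 6 libraries came from cells stimulated for 6 h with PMA (100 ng/ml) plus 1 µM of ionomycin, which together mimic a T cell receptor signal, and no unstimulated cells were compared. The labels name neither the promoter of the construct nor whether a line was 1 clone. Nor do they tell whether replicates were cultured apart, and p-values therefore reflect the spread of these libraries alone, some of which may be technical.

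An integrin reaches the surface only when both of its chains are made, and some beta chains are shared between several alpha chains. The beta 1 chain serves the receptors for fibronectin, laminin and collagen, the beta 2 chain with alpha L forms LFA-1, which binds ICAMs, and the beta 7 chain pairs with alpha 4 or alpha E. The alpha E chain, CD103, binds E-cadherin on epithelia and, with the collagen receptor chain alpha 1 (CD49a), is widely used as a marker of T cells that stay in tissues. Resting T cells hold their integrins in a low affinity state, and receptor signals that activate the small GTPase RAP1, talin and kindlin switch them on.

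The labels held for the overexpressed gene. SCML4 had 7, 2 and 1 reads in EV replicates 1 to 3 and 570, 657 and 506 reads in SCML4 replicates 1 to 3. Libraries held 8953671 to 10336597 reads, and CPM below is reads divided by that total and multiplied by 1000000. All 10 T cell markers checked, the CD3 chains, CD2, CD5 and LCK among them, had a mean of at least 10 reads. Their summed level was 2871 to 3149 CPM in EV and 3184 to 3264 CPM in SCML4, so this sum too was apart between the groups, and its part in the results below was not tested. Markers of myeloid cells summed to at most 1.00 CPM in any library, those of epithelial cells to 1.90 CPM and those of fibroblasts or endothelium to 2.68 CPM. B cell markers reached 34.4 CPM, nearly all from CD79A, with PAX5 at 0 reads, and NK cell markers reached 7.85 CPM with NCR1 at 0. A library that differs from the rest is EV replicate 1, with a score of -30.3 on the leading principal component of 14160 genes (36.5% of variance), where the other scores were 2.29 to 8.12. Results that rest on it are given with and without it.

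All 10 integrin transcripts were detected in every library, over a wide range of abundance. ITGA4, ITGAL, ITGB2 and ITGB1 stood between 107 and 225 CPM on average over the 6 libraries. ITGA5, ITGA6, ITGAV and ITGA1 followed at 32.1 to 46.8 CPM, then ITGAE at 21.5 CPM, which was below ITGA1 in all 6 libraries although their ranges overlapped. ITGB7 was lowest at 3.44 CPM, or 19 to 57 reads per library. The 10 genes summed to 819 ± 8.75 CPM in EV and 819 ± 44.7 CPM in SCML4 (mean ± SD, n = 3 each). The summed level of this set of integrin chains thus differed between the groups by less than the spread between libraries.

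**Figure D1:**
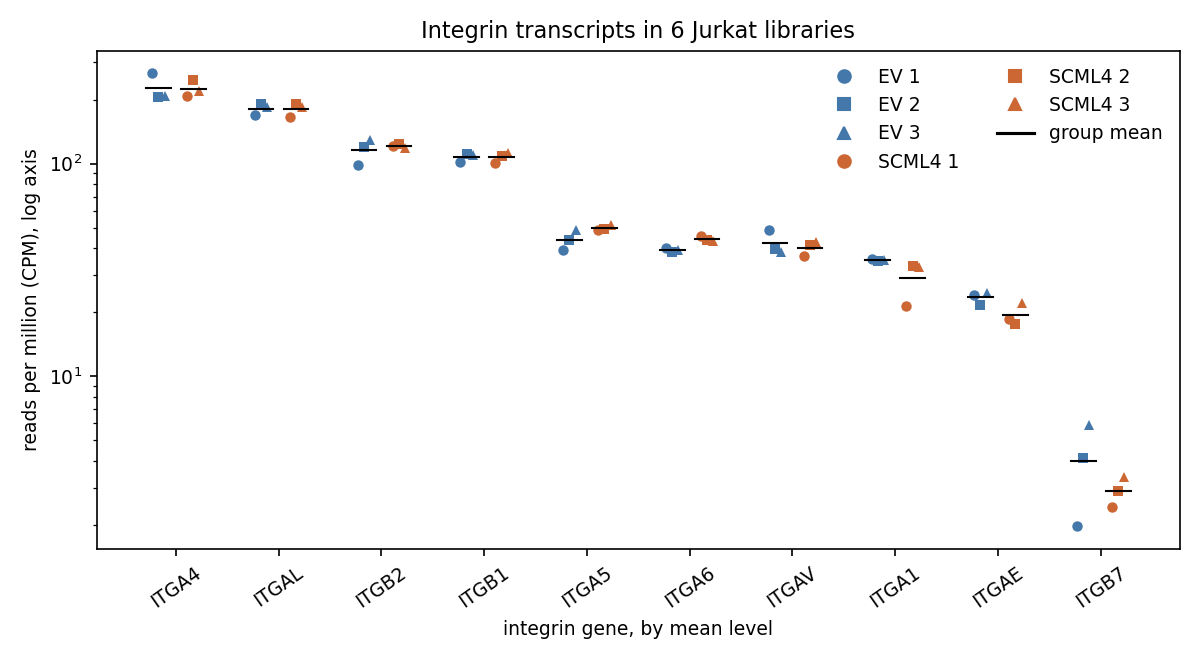
CPM (vertical log axis) of the 10 integrin genes (horizontal axis, ordered by mean level) in each of 6 libraries. Points are libraries, marked by group and replicate, and bars are group means. ITGA4 lies highest at 225 CPM on average and ITGB7 lowest at 3.44 CPM, and the 2 groups lie close together for most genes.

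Longer transcripts give more reads, so levels between genes were also set per kilobase of exonic length from GENCODE 29. This scale divides by the joined exons of all annotated transcripts of a gene. Which transcripts these cells use was not measured, so the order on it can depend on the annotation. On that scale ITGA4 stood at 28.5 CPM per kb and ITGAL at 28.0, and each was the higher of the pair in 3 of 6 libraries. ITGB1 at 17.9 and ITGB2 at 17.4 CPM per kb likewise changed places in 3 of 6 libraries. ITGA6, ITGA5 and ITGAV followed at 6.38, 6.18 and 5.03 CPM per kb with overlapping ranges. ITGAE stood at 3.22 CPM per kb, with a range of 2.66 to 3.71 that overlapped neither neighbour. ITGA1 lay at 1.73 CPM per kb, below ITGAE on this scale although above it in reads, because its annotated exons add up to 18566 bases against 6657. ITGB7 remained last at 0.769 CPM per kb. The ranges of ITGA1 and ITGB7 overlapped, although ITGA1 was the higher in each of the 6 libraries.

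Deposited FPKM values give another order, which was not used. FPKM divides by a gene length, and the length implied for ITGB1 was 131 bases against an exonic length of 6011, which puts ITGB1 first at a mean of 820 FPKM. For ITGAE the implied length was 238 bases, which gives 90.2 FPKM, above the 30.9 FPKM of ITGA5, a gene with more reads. Over the 10 genes the implied length was 2.18% to 30.7% of the exonic length. Ratios between libraries of 1 gene do not depend on that length.

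Whether excess SCML4 goes with other levels of integrin transcripts was asked by comparing the 2 groups. None of the 10 integrin genes passed the threshold. Of 15357 genes tested by limma-trend on log2(FPKM + 1), 0 reached a Benjamini-Hochberg adjusted p under 0.05, a background of 0%, and SCML4 itself had an adjusted p of 0.0619. SCML4 passed in 7 of 19 alternatives, 4 of them fits of the recovered reads, where its difference on log2(CPM + 1) was 5.55 against 1.88 on log2(FPKM + 1). All 10 integrin genes were among those tested. At an unadjusted p under 0.05 there were 2 of them, where 5.09% of all tested genes lay under that value: ITGAE, lower with SCML4 (2.11% of all tested genes), and ITGA6, higher (2.98%). The groups did not overlap for 3 of them, where 11.3% of all tested genes had groups apart. These were ITGA5 and ITGA6 with SCML4 higher (6.02% of all tested genes) and ITGA1 with SCML4 lower (5.27%). The median difference of the 10 genes was -0.01 in log2 and that of all genes tested 0.01, with 3 positive and 7 negative. Without EV replicate 1 the count past the threshold was again 0, with 2 at an unadjusted p under 0.05, ITGA6 and ITGB7, and 4 positive differences. With 3 libraries a group, the smallest p that the exact permutation test of a single gene (two-sided) can give is 0.1.

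ITGAE, the alpha chain of the E-cadherin receptor, was present at 24.2, 21.6 and 24.7 CPM in EV replicates 1 to 3. In SCML4 replicates 1 to 3 it was at 18.5, 17.7 and 22.0 CPM. SCML4 replicate 3 lay above EV replicate 2, so the groups overlapped by that pair, and the other SCML4 libraries lay below all of EV. The means were 23.5 ± 1.64 and 19.4 ± 2.28 CPM (SD, n = 3 each), a ratio of 0.826. On the log2(FPKM + 1) scale the difference was -0.28 (SE 0.10), its 95% interval ran from -0.53 to -0.03, and limma-trend gave an unadjusted p of 0.0347, for an adjusted p of 0.905 over all genes tested. The exact permutation p was 0.2. In bulk RNA, fewer cells with the transcript and less transcript per cell cannot be told apart. As a share of the reads of the 10 integrin genes, ITGAE took 2.94%, 2.67% and 2.99% in EV and 2.41%, 2.07% and 2.65% in SCML4. On this measure the groups did not overlap, the nearest libraries being EV replicate 2 and SCML4 replicate 3 (exact permutation p = 0.1). That p is the smallest this test can give, and how often such shares separate genes outside the 10 was not tested. Reads of ITGAE per read of ITGA4 overlapped between the groups (exact permutation p = 0.2), as did those per read of ITGB7. By share ITGA1 and ITGA6 were apart too, but ITGA5 overlapped, with EV replicate 3 at 5.90% and SCML4 replicate 2 at 5.72%. The difference of ITGAE stayed between -0.37 and -0.21 under every alternative setting and with each library left out in turn. The smallest adjusted p among these fits was 0.493, and the unadjusted p was under 0.05 in 14 of the 19 alternatives. In limma-trend on log2(CPM + 1) of the recovered reads the unadjusted p was 0.0552. Without EV replicate 1 the difference was -0.25, with an unadjusted p of 0.0806.

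HASPIN, a histone H3 kinase gene, lies within ITGAE on the opposite strand, and 427 of the 6657 exonic bases of ITGAE are shared with it. Whether strand was used in counting is not given in the sources used here, so reads from the shared bases cannot be assigned with certainty. Reads of HASPIN numbered 614, 694 and 753 in the EV libraries against 706, 775 and 751 with SCML4, more than those of ITGAE in each library. It was lowest in EV replicate 1, where ITGAE was close to its highest.

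ITGB7, the partner of ITGAE and of ITGA4 in the gut homing receptor for MAdCAM-1, was scarce. EV replicates 1 to 3 held 19, 37 and 57 reads, or 1.97, 4.13 and 5.89 CPM, and SCML4 replicates 22, 30 and 30 reads, or 2.43, 2.90 and 3.35 CPM. EV spanned the whole range of the data, with the lowest and the highest library both in that group. The coefficient of variation was 49.1% in EV, where counting alone would give 16.3%, and 16.0% in SCML4, where it would give 19.1%. The difference of -0.27 (SE 0.28, 95% interval -0.95 to 0.42) did not pass (limma-trend, adjusted p = 0.929). It was -0.57 without EV replicate 1 and -0.01 without EV replicate 3, so its size rests on those libraries. ITGB7 shares 1886 of its 4481 exonic bases with ZNF740, a zinc finger gene on the opposite strand. ZNF740 had 757 to 883 reads per library, so that a small part of its reads would equal all those of ITGB7. How the reads of the shared bases were divided was not tested.

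Reads of ITGAE outnumbered those of ITGB7 in every library, by 12.3, 5.24 and 4.19 in EV and by 7.64, 6.10 and 6.57 in SCML4. ITGA4, the other partner of ITGB7, outnumbered it by 35.4 to 135. For both pairs EV replicate 1 gave the highest value and EV replicate 3 the lowest, with the SCML4 libraries in between.

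ITGA4 encodes the alpha chain of VLA-4, which binds VCAM-1 and fibronectin, and was the most abundant in reads. It stood at 266, 205 and 209 CPM in EV and at 208, 246 and 219 CPM in SCML4. EV replicate 1 was the highest of the 6 and the groups overlapped. The difference was -0.005 with a 95% interval of -0.30 to 0.29. Without EV replicate 1 it was 0.12. ITGB1, the beta chain of VLA-4 and of the other matrix receptors, stood at 101, 111 and 110 CPM in EV and at 101, 109 and 112 CPM in SCML4. The groups overlapped, and the difference of -0.003 was the smallest in size among the 10 genes, with an interval of -0.17 to 0.16. For each read of ITGB1 the EV libraries held 2.62, 1.84 and 1.90 reads of ITGA4, and the SCML4 libraries 2.06, 2.26 and 1.96.

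The chains of LFA-1, the receptor that holds T cells to ICAM-1, showed no difference beyond the spread between libraries. ITGAL stood at 169, 190 and 185 CPM in EV and at 166, 190 and 185 CPM in SCML4. ITGB2 was at 98.2, 120 and 129 CPM in EV and at 121, 124 and 118 CPM in SCML4. EV replicate 1 was the lowest library for ITGB2, and the SCML4 values lay between EV replicate 1 and EV replicate 3. The differences were -0.01 (95% interval -0.20 to 0.19) for ITGAL and 0.07 (-0.19 to 0.33) for ITGB2. Without EV replicate 1 that of ITGB2 was -0.04. ITGB2 shares 303 of its 6797 exonic bases with the antisense gene ITGB2-AS1, which had 141 to 225 reads per library. Reads of ITGAL per read of ITGB2 were 1.58 ± 0.147 in EV and 1.49 ± 0.0995 in SCML4 (mean ± SD).

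Of the alpha chains that pair with beta 1 to bind the matrix, ITGA6 and ITGA5 lay higher in all SCML4 libraries. ITGA6, a laminin receptor chain, was at 40.1, 38.6 and 39.0 CPM in EV and at 45.8, 43.6 and 43.1 CPM in SCML4, a ratio of 1.13. The groups did not overlap, and the difference was 0.17 (SE 0.06, 95% interval 0.01 to 0.32), with an unadjusted p of 0.0372 in limma-trend that became an adjusted p of 0.905. Within EV the coefficient of variation was 1.95%, smaller than the 5.20% that counting alone would give for this number of reads. With each library left out in turn the difference of ITGA6 ranged from 0.14 to 0.18. Its unadjusted p was under 0.05 in 8 of the 19 alternatives. In limma-trend on log2(CPM + 1) of the recovered reads that p was 0.0963.

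ITGA5, the chain of the classical fibronectin receptor, was at 39.2, 43.8 and 48.7 CPM in EV and at 48.8, 49.1 and 51.5 CPM in SCML4. EV replicate 3 lay just under the lowest SCML4 library. The difference was 0.18 (SE 0.09, 95% interval -0.05 to 0.40), with an unadjusted p of 0.0998, and it was 0.10 without EV replicate 1 and 0.25 without EV replicate 3. Per read of ITGB1, reads of ITGA5 numbered 0.388, 0.393 and 0.443 in EV and 0.484, 0.450 and 0.459 in SCML4, with the groups apart. The exact permutation p of 0.1 is the smallest that test can give, and the ratio reuses the ITGA5 values that were already apart. How often such ratios separate other pairs of genes was not tested. The same ratio for ITGA6 overlapped between the groups, at 0.346 to 0.396 in EV and 0.385 to 0.454 in SCML4.

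ITGA1, the collagen receptor chain CD49a, had a more negative difference than the other 9 genes in the main fit, but not in others: with library weights ITGB7 was at -0.47 and ITGA1 at -0.23. It was at 35.5, 34.9 and 35.1 CPM in EV and at 21.4, 33.0 and 32.7 CPM in SCML4. SCML4 replicate 1 lay far below the other 5 libraries, and the remaining SCML4 libraries were just under EV. The difference of -0.30 (SE 0.17, 95% interval -0.70 to 0.11) had an unadjusted p of 0.125, and it was -0.10 without SCML4 replicate 1. The EV values varied by 0.871%, where counting alone would give 5.49%. ITGA1 shares 475 of its 18566 exonic bases with PELO, a ribosome rescue factor gene on the same strand, which had 766 to 1020 reads per library. PELO had 899 reads in SCML4 replicate 1, within the range of the other libraries. For each read of ITGA1 the EV libraries held 1.13, 1.11 and 1.11 reads of ITGA6 and the SCML4 libraries 2.14, 1.32 and 1.32, groups that had to be apart since both genes were. ITGAV, the chain of receptors for vitronectin and for latent TGF-beta, stood at 48.9, 39.6 and 38.5 CPM in EV and at 37.0, 41.2 and 42.8 CPM in SCML4. Its highest value was in EV replicate 1, and its difference of -0.06 (95% interval -0.34 to 0.21) became 0.04 without that library.

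**Figure D2:**
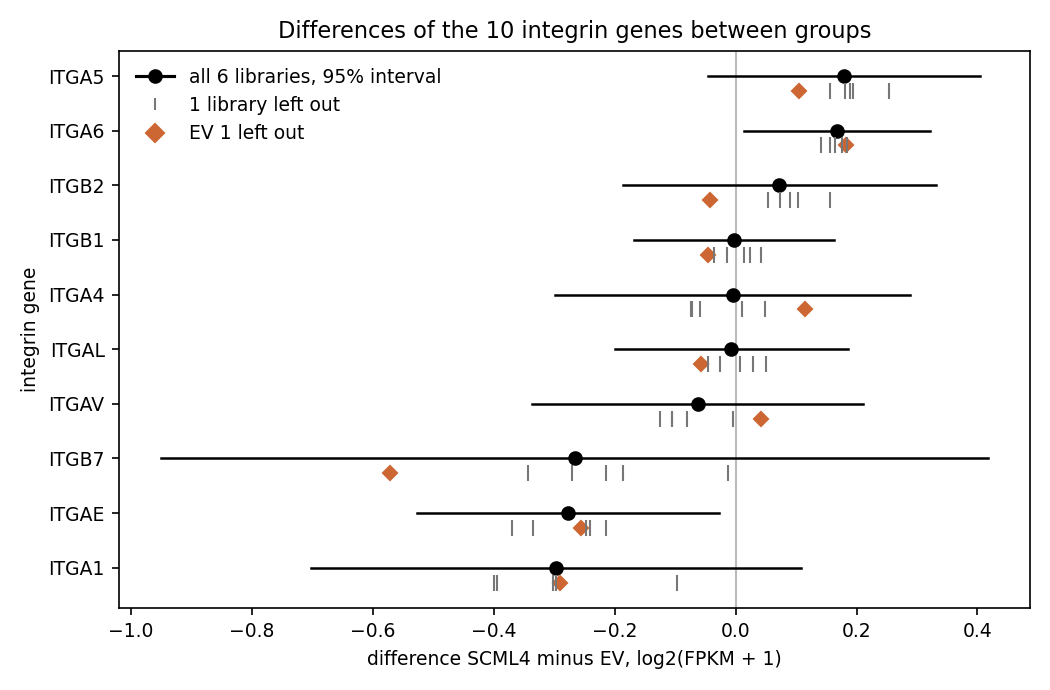
Difference of each integrin gene between SCML4 and EV (horizontal axis, log2(FPKM + 1) scale) by limma-trend, with genes on the vertical axis. Black points and lines are estimates and 95% intervals from 6 libraries, grey ticks the estimates with 1 library left out, and diamonds those without EV replicate 1. ITGAE and ITGA6 have intervals that leave out 0 before adjustment, at -0.28 and 0.17, and ITGB7 moves from -0.27 to -0.57 without EV replicate 1.

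EV replicate 1 was the highest library for ITGA4, ITGAV and ITGA1 and the lowest for ITGB7, ITGB2 and ITGA5. Its values deviated from the mean of the 6 libraries by 0.21 on average in log2(CPM + 1), against 0.05 to 0.18 in the other libraries. The GC content of the longest transcript is 38.2% for ITGAV, 38.8% for ITGA1 and 44.1% for ITGA4, and 54.5% for ITGA5 and 59.4% for ITGB7, with ITGB2 the highest of the 10 genes. Over the 10 genes, which all share the same libraries, the deviation of EV replicate 1 had a Spearman coefficient of -0.72 with GC content. Over 13324 genes, which are not independent replicates, the coefficient was -0.52 for this library and 0.05 to 0.30 for the others. ITGAE, at a GC content of 54.9%, did not follow this order, being high in EV replicate 1. Nor did ITGB1 and ITGA6, at 40.0% and 42.9%, which deviated by -0.08 and -0.05 in that library. After correction of the recovered reads for GC content and length the difference of ITGAE was -0.31, that of ITGA6 0.20, that of ITGA5 0.14 and that of ITGA1 -0.21, with adjusted p values of 0.808 to 0.879 in limma-trend.

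**Figure D3:**
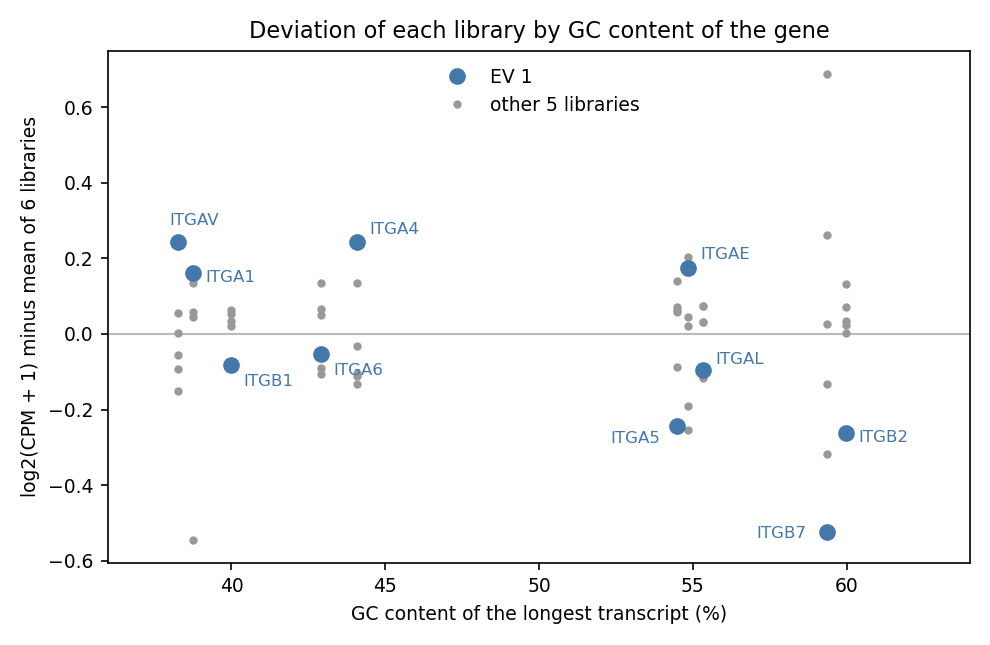
Deviation of each library from the mean of 6 libraries (vertical axis, log2(CPM + 1)) against the GC content of the longest transcript (horizontal axis, percent) for the 10 integrin genes. Blue points are EV replicate 1 and grey points the other 5 libraries. In EV replicate 1 ITGB7 and ITGB2, the genes of highest GC content, lie low, and ITGAV and ITGA4 lie high. Against that order ITGAE lies high, and ITGB1 and ITGA6 lie slightly low.

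The 5 genes most like ITGAE over the 6 libraries were not integrins, which are few among the genes compared. Likeness was the root mean square difference between profiles of log2(CPM + 1) centred on their own mean, over 11406 other genes that averaged 50 reads or more. The 5 closest were the splicing factor gene ZRSR2 at 0.04, RRP7BP at 0.04, RAD1P1 at 0.05, the kinase gene CDKL1 at 0.06 and OFD1P17 at 0.06, where the median of all compared genes was 0.21. Of these, RRP7BP, RAD1P1 and OFD1P17 are pseudogenes whose reads can be shared with their parent genes. Counting alone would give ITGAE a coefficient of variation of 6.71% in EV and 7.40% in SCML4, and ZRSR2 had only 66 to 94 reads. Distances this small are no larger than counting error, so which genes come closest can rest on it. Among the integrins ITGAV came closest to ITGAE at 0.17 with 2329 genes closer, then ITGB1 at 0.18. ITGB7, its partner chain, was at 0.37 with 10932 genes closer, but its 19 to 57 reads averaged less than was asked of the compared genes, so counting error weighs more in its distance.

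The other 16 integrin subunits had few reads. Of these, 2 (ITGAX and ITGB8) had 0 reads in all libraries, which allows up to 0.335 CPM in the shallowest library at 3 reads, and 11, these included, had a mean under 10 reads. ITGA3, a laminin receptor chain, had 112 to 140 reads per library. ITGB3, the beta chain of the vitronectin receptor that pairs with ITGAV, had 50 to 75 reads, and ITGB6 and ITGB5, other partners of ITGAV, had at most 7 and 9. ITGA2B, the platelet fibrinogen receptor chain, had 1 to 10 reads. ITGAM, the myeloid partner of ITGB2, had 0 to 3 reads, so that among the partners of ITGB2 the reads lay almost wholly on ITGAL. Of the 7 subunits tested none passed, with 2 positive and 5 negative differences and a median of -0.01. The smallest unadjusted p values in that list were those of ITGB6 (-0.49) and ITGA2B (-0.41), both from 10 reads or fewer, followed by ITGA3 (0.04) and ITGA10 (0.07).

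Genes that switch integrins on from inside the cell ranged from FERMT1, a kindlin of epithelia with 0 or 1 read per library, to several above 200 CPM. TLN1, which encodes talin and joins the beta chain tail to actin, was at 232 CPM in EV and 249 CPM in SCML4. FERMT3, the kindlin of blood cells, was at 104 ± 24.2 and 122 ± 1.51 CPM (mean ± SD), and RASSF5, which carries RAP1 signals to LFA-1, at 294 and 310 CPM. Of 17 genes tested by limma-trend none passed, with 11 positive and 6 negative differences and a median of 0.08. VAV1, an exchange factor for RAC, had the smallest unadjusted p of the list (0.0415), with 45.5 ± 7.04 CPM in EV and 56.4 ± 1.90 in SCML4 and groups apart. CRKL, an adaptor that recruits RAP1 exchange factors, stood at 382 ± 4.82 and 363 ± 2.05 CPM, lower in each SCML4 library. FERMT2, a kindlin of adherent cells, had a difference of -0.19. Without EV replicate 1 the difference of FERMT3 went from 0.25 to 0.05, that of FERMT2 was -0.10 and that of VAV1 0.20, with 12 positive differences in the list.

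Genes that restrain integrins numbered 9 among those tested, and none passed. Differences were positive in 5 and negative in 4, with a median of 0.16. DOK1, an adaptor that competes with talin for beta chain tails, had 24.2 ± 1.56 CPM without and 29.4 ± 0.129 CPM with SCML4, the groups being apart. Its difference of 0.27 had an unadjusted p of 0.00848 in limma-trend that became an adjusted p of 0.905. SHARPIN, which binds alpha chain tails, had a difference of 0.22, RAP1GAP2, which switches RAP1 off, one of -0.37 and the RAP1-binding protein gene KRIT1 one of -0.19. The difference of RAP1GAP2 without EV replicate 1 was -0.64 (limma-trend, adjusted p = 0.326), that of KRIT1 -0.04 and that of DOK1 0.25, and 4 were positive. With 1 library left out SHARPIN ran from 0.12 to 0.34, lowest without SCML4 replicate 3 and highest without SCML4 replicate 1, and RAP1GAP2 was -0.23 without EV replicate 2. After correction for GC content and length DOK1 was at 0.16 with an unadjusted p of 0.153 in limma-trend, and SHARPIN at 0.11. FLNA, filamin A, had the most reads of these genes, at 823 CPM in EV and 914 CPM in SCML4.

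Of 16 genes tested for signalling and linkage below bound integrins, 12 had positive differences and none passed (median 0.09). ACTN4, an actinin that crosslinks actin, averaged 69.4 ± 7.66 CPM in the control and 84.9 ± 0.621 CPM in the SCML4 libraries with groups apart, a difference of 0.29 with an unadjusted p of 0.0147. VASP, an actin polymerising protein, had a difference of 0.24, LIMS1, the partner of integrin-linked kinase, one of 0.19 and the docking protein gene NEDD9 one of -0.17. That of VASP was 0.14 without EV replicate 1, and that of NEDD9 ran from -0.28 without EV replicate 3 to -0.09 without EV replicate 2. ILK itself, the integrin-linked kinase, had only 7 to 22 reads per library. Among membrane proteins that associate with integrins, 9 of 11 differences were positive and none passed (median 0.11). The tetraspanin CD82 was at 78.3 ± 5.46 and 96.8 ± 10.8 CPM with groups apart, and CD81 had a difference of 0.11. CD226, which associates with LFA-1, was at 238 ± 21.2 and 216 ± 8.39 CPM, lower in each SCML4 library. CD9 had 1 to 11 reads per library and a difference of 0.63. Leaving out EV replicate 1 gave -0.06 for CD226 and 0.42 for CD9, and correction for GC content and length gave 0.02 for CD81. Over all genes tested 51.7% of differences were positive. Positive differences numbered 9 in each of these lists without EV replicate 1, and after correction of recovered reads for GC content and length 12 and 6.

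Of 25 genes for ligands of these integrins, 6 had 0 reads in all libraries and 14, these included, averaged under 10 reads. CDH1, which encodes E-cadherin, the ligand of the alpha E integrin, had 0 reads in all libraries, and VCAM1 had 0 or 1. ICAM2 and ICAM3, ligands of LFA-1 on leukocytes, were at 24.1 and 19.4 CPM in EV and at 24.2 and 20.2 CPM in SCML4. ICAM1 had 8 to 23 reads and fell under the FPKM filter. Of 13 ligand genes tested 5 had positive differences and none passed, with a median of -0.16, the lowest values coming from laminin genes with at most 8 reads. F11R, a junctional ligand of LFA-1, had a difference of -0.20, the matrix genes FBN1 and FN1 had -0.31 and -0.23, and EMILIN1, a ligand of VLA-4, had 0.32 with groups apart. EMILIN1 was at 0.19 without EV replicate 2, FN1 at -0.11 without SCML4 replicate 2, and FBN1 at -0.50 without SCML4 replicate 2 and -0.19 without SCML4 replicate 1.

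TGF-beta signals raise ITGAE in T cells and the RUNX3 factor acts with them, so these genes and others of tissue residency were set beside ITGAE. The receptor genes TGFBR1 and TGFBR2 were at 75.0 and 85.2 CPM in EV and at 69.0 and 89.4 CPM in SCML4. EV and SCML4 means were 55.7 and 58.4 CPM for RUNX3, and 76.2 and 78.4 CPM for the signal transducer gene SMAD3. ZNF683, the residency factor Hobit, had 0 or 1 read per library and AHR, another factor of resident cells, 0 to 2. Of 20 genes tested by limma-trend 11 had positive differences and none passed, with a median of 0.01. The groups did not overlap for 3 of them, where 11.3% of all tested genes had groups apart. These were CD69 and TGFBR2 with SCML4 higher and TGFBR1 with SCML4 lower. CD69, an activation antigen that retains T cells in tissue, averaged 17.2 ± 0.215 CPM in the control and 22.6 ± 4.59 CPM in the SCML4 libraries with groups apart, a difference of 0.37 opposite in sign to that of ITGAE and ITGA1 (unadjusted p = 0.0337, adjusted p = 0.905). CD69 was highest in SCML4 replicate 3, and its difference was 0.22 without that library. Other genes of the list lay on both sides of 0 with overlapping groups, such as S1PR1 at -0.24, KLF2 at -0.19, CXCR6 at -0.01 and BHLHE40 at 0.07. CBFB, the partner of RUNX factors, had a difference of -0.12, SMAD4 of -0.18 and TGFBR1 of -0.11. That of SMAD4 was -0.11 without EV replicate 1 and -0.30 without EV replicate 3, and with the correction TGFBR1 was at -0.06.

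**Figure D4:**
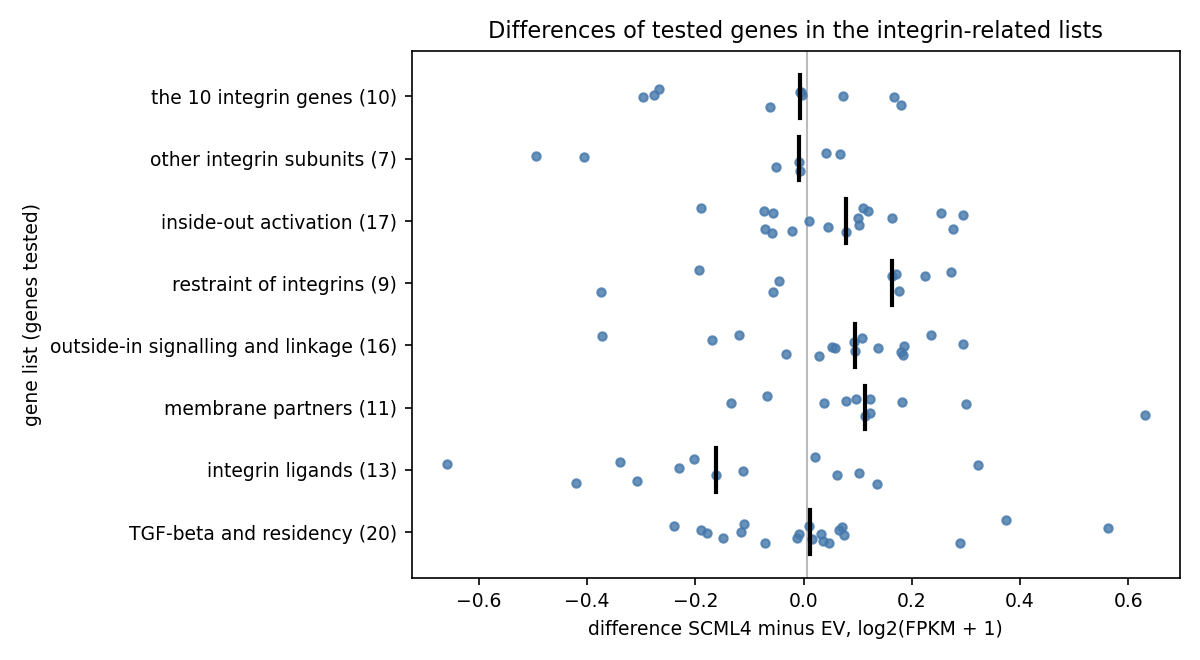
Difference between SCML4 and EV (horizontal axis, log2(FPKM + 1) scale) of each tested gene in the 10 integrin genes and in 7 related lists (vertical axis, genes tested in brackets). Points are genes, spread vertically for display, black bars are list medians and the grey line is the median of all genes tested, 0.01. Medians run from -0.16 for the ligands to 0.16 for the genes that restrain integrins, and no gene shown passed the threshold.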

How the data were processed

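Total RNA came from TRIzol lysates and a SMARTer kit for mRNA was used to build libraries, per the labels' protocols. FastQC, STAR, SAMtools and hg19 are named without versions, per the submitters' processing notes, and neither the counting tool and its strand setting nor the gene annotation and its lengths were given in the sources used here. Values were deposited by the authors as FPKM in a table of 6 library columns. Whole reads, library totals and the implied length of each gene were worked out from the steps of the FPKM values. All 23897 genes above 0 came out as whole reads with a whole length, and a common divisor of a gene's reads can be missed. Between 99.63% and 99.65% of each total lay on genes of the table. Implied and exonic lengths had a Spearman coefficient of -0.0053 over 13324 genes, so levels are given from reads.

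Each difference, the SCML4 mean less the EV mean of log2(FPKM + 1), was tested by limma-trend (limma 3.58.1, R 4.3.3), for the 15357 genes with a mean of at least 0.5 FPKM, with Benjamini-Hochberg adjustment over all of them and a threshold of 0.05. The filter, pseudocount and variance trend depend on the implied lengths. GENCODE 29 (GRCh38) gave exonic lengths, GC content and overlaps, and no coordinates, since the build differs. No molecular identifiers are described, so floors and counting variation speak of counting error alone. Replicate numbers did not pair libraries and were used as a block in an alternative only. The smallest chi-square per gene between replicates was 2.53, so no library was counted as a duplicate. Members and lists were chosen with earlier results of these data known. Besides SCML4, the members, genes overlapping them and the 5 genes most like ITGAE, up to 4 genes of smallest unadjusted p were named from each list. Other genes named from the lists, such as TLN1, FLNA, CDH1 and RUNX3, were chosen after their values were seen. Alternatives were other pseudocounts, filters, scalings, variance priors, library weights, a replicate block, limma-trend and limma-voom on recovered reads (mean of 10 reads or more), correction for GC content and length (lowess, span 0.3) and leaving out each library.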

Additional observations from a re-analysis of the deposited data

How the results depend on the processing

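The count of integrin genes past the threshold was 0 under all 19 alternatives, and at an unadjusted p under 0.05 it ranged from 0 to 2. Over all genes 0 passed in the main limma-trend comparison (781 at an unadjusted p under 0.05). With no filter 7 passed, without the intensity trend 4, and with library weights 1. In fits of the recovered reads 1 passed by limma-trend on log2(CPM + 1), 1 by limma-voom, 14 by limma-voom with library weights and 3 with the GC and length correction. With each library left out in turn the count stayed at 0. ITGAE, ITGB7, ITGA1, ITGA5 and ITGA6 kept the sign of their difference under all 19 alternatives. Signs turned where differences were near 0. That of ITGA4 became 0.00044 after rescaling to TPM, 0.13 with library weights, 0.11 in the weighted limma-voom fit and 0.027 with the GC and length correction, and with 1 library left out it ran from -0.073 to 0.12 (0.12 without EV replicate 1). ITGAL ran from -0.057 to 0.050 with 1 library left out. ITGB1 became 0.013 under quantile normalization, 0.0027 after rescaling to TPM and 0.047 with the correction, and ran from -0.045 to 0.042 with 1 library left out. ITGB2 became -0.00055 with the correction and ran from -0.042 (without EV replicate 1) to 0.16. ITGAV became 0.015 with library weights, 0.013 in the weighted limma-voom fit and 0.0080 with the correction, and ran from -0.12 to 0.042 (without EV replicate 1). In the same order ITGA3 became -0.022, -0.024 and -0.020 and ran from -0.032 to 0.093. ITGA10 became -0.016 with library weights and -0.018 in the weighted limma-voom fit, and ran from -0.030 to 0.24. The cause was not tested. The number of positive differences among the 10 genes, 3 in the main comparison, ranged from 3 to 6.

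With the replicate number as a block 0 genes passed in limma-trend (646 at an unadjusted p under 0.05), and the block changed no call. The unadjusted p of ITGAE was then 0.0253 and that of ITGA6 0.0921. Deviations of same-numbered libraries correlated at -0.06, -0.11 and -0.05, so the numbers were not taken as pairs. Positive values came from other numbers only: EV 1 with SCML4 2 (0.14), EV 2 with SCML4 3 (0.13) and EV 3 with SCML4 1 (0.11). Deviations were taken from the mean of each group, so a negative value for the same number forces a positive value with another number. Whether those libraries share a batch was not tested. For genes averaging 50 reads or more, the 95% interval before adjustment extended 0.26 in log2 on each side of the estimate (median over genes). The adjusted threshold asks for more. In the main limma-trend fit SCML4 had an adjusted p of 0.0619, and the smallest of any other gene was 0.467. Differences of the size of ITGAE and ITGA6 can thus be missed with 3 against 3 libraries.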
